A study of Mus musculus with 6 samples.

Results

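The RNA of 9 calcium transport genes was followed in NMuMG cells, an epithelial line from the mouse mammary gland. They were chosen by symbol and comprise 6 calcium pump genes (Atp2a2, Atp2a3, Atp2b1, Atp2b4, Atp2c1 and Atp2c2) and 3 genes of mitochondrial calcium transport (Mcu, Micu2 and Slc8b1), out of 18512 entries in the count table. Cells of all groups were starved of serum for 4 h. They were then given vehicle (DMSO), TGF-β alone (5 ng/ml) or TGF-β at the same dose together with 50 uM 2APB, each for 24 h by the account of the sequencing experiment, although the treatment protocol places 2APB before TGF-β. TGF-β is a cytokine that drives epithelial cells toward a mesenchymal state, and 2APB is a blocker of store-operated calcium entry that also acts on IP3 receptors and TRP channels. RNA of 2 biological replicates per group was sequenced (6 libraries), and 2APB without TGF-β was not analysed here.

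Calcium is kept low in the cytosol by pumps that spend ATP. The plasma membrane pumps (PMCA, the Atp2b genes) export calcium from the cell, the SERCA pumps (Atp2a genes) load the endoplasmic reticulum, and the SPCA pumps (Atp2c genes) load the Golgi with calcium and manganese. Mitochondria take calcium up through the uniporter, whose pore is Mcu and whose gatekeepers are the Micu proteins, and release it through the sodium-calcium exchanger NCLX (Slc8b1). In the mammary gland, pumps of these families move calcium toward milk.

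The libraries held 71840570 to 79473182 counts. Normalized counts are counts scaled to a library of mean size with TMM factors. The 13353 genes whose mean reached 20 normalized counts were tested with edgeR's quasi-likelihood test, over the 3 groups in 1 model. A gene was called when its FDR (Benjamini-Hochberg) was 0.05 or less, and SE is the standard error of a log2 fold change. Of the 9 genes, 8 had enough counts, and Atp2c2 did not. The epithelial label was checked with Cdh1, Epcam, Krt8, Krt18, Krt19 and Cldn7. The keratins Krt8 and Krt18 and Cdh1 were abundant, and the summed level of the list was 528335 to 562773 normalized counts in DMSO, 702626 to 824931 with TGF-β and 1308010 to 1374575 with TGF-β+2APB. The rise of the sum came from Krt8 and Krt18, which were called higher against DMSO in both treatments, while Cdh1 (log2 fold change -0.78 with TGF-β and -1.26 with TGF-β+2APB), Epcam (-1.42 and -0.97) and Krt19 (-2.04 and -4.09) were called lower (edgeR FDR). Epcam was at 52 to 158 counts and Cldn7 at 2 to 6 counts per library. Replicate 2 of TGF-β+2APB stood apart in a list of 6 markers of blood and immune cells, among them Ptprc, Cd3e, Cd68, Itgam and Lyz2, whose summed normalized count was 31067, against 335 in replicate 1 of the same group and 407 to 4295 in the other 4 libraries. Of these markers Cd3e had 2 counts in that library and Lyz2 had 29060. Endothelial markers summed to 18.6 to 62.3 normalized counts in the DMSO and TGF-β libraries and to 273 and 428 with TGF-β+2APB, mostly through Vwf. Adipocyte markers summed to 0 to 2.07 and neuronal markers to 66.1 to 73. The muscle list reached 9515 to 11178 normalized counts in the TGF-β and TGF-β+2APB libraries against 470 to 523 in DMSO, almost wholly through Tnnt2, while Ckm and 4 of its 5 Myh genes were not in the table. In such bulk RNA, fewer cells of a type and less RNA per cell cannot be told apart.

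TGF-β changed 5 of the 8 tested genes against DMSO, with Atp2b4 and Atp2c1 higher and Atp2b1, Mcu and Slc8b1 lower (edgeR FDR). Over all tested genes 41.5% were called in this comparison, 21.8% higher and 19.7% lower. Of the 8 genes, 7 were called for TGF-β+2APB against DMSO, the same 5 and in addition Atp2a2 and Micu2, both lower, where 52.8% of all tested genes were called, 25.6% higher and 27.2% lower. From TGF-β to TGF-β+2APB, 2 of 8 were called, Atp2b4 higher and Atp2b1 lower, against 17.5% of all tested genes (6.58% higher and 10.9% lower). The median size of the log2 fold change over the 8 genes was 0.61, 0.96 and 0.22 in these comparisons, beside 0.35, 0.44 and 0.23 over all tested genes. The comparisons share libraries, so their calls are not independent of each other. Without replicate 2 of TGF-β+2APB, the library with the high blood markers, 5 genes were called for TGF-β+2APB against DMSO and 1, Atp2b4, in the direct comparison. Without replicate 1 of DMSO the 5 calls with TGF-β became 3, Atp2b1, Mcu and Slc8b1. Without replicate 2 of TGF-β the direct comparison called 4 genes, with Atp2a2 and Mcu added as lower.

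**Figure D1:**
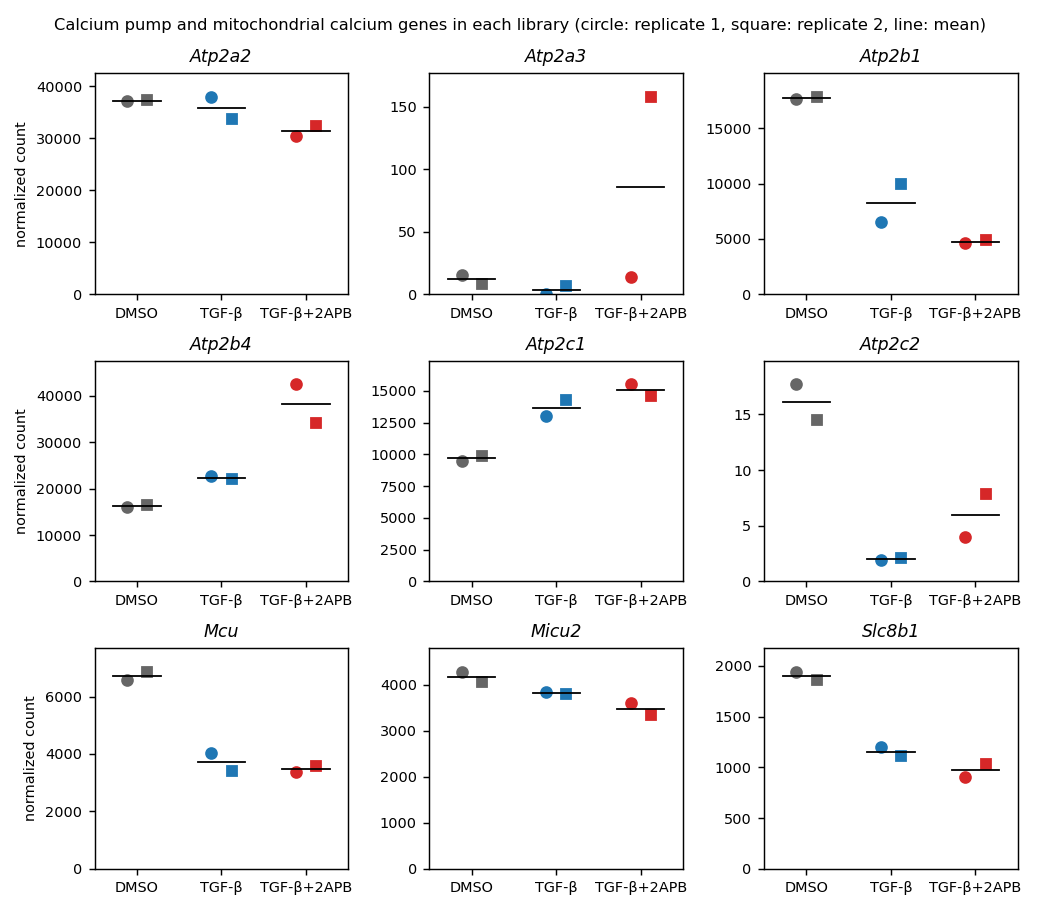
Normalized counts of the 9 genes (y axis, from 0) in each of the 6 libraries, by group (x axis). Circles are replicate 1, squares replicate 2 and lines the mean of 2. Atp2b1 is at its highest and Atp2b4 at its lowest in the DMSO libraries, and Atp2a3 is high in 1 library, at 158.

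The plasma membrane pumps moved in opposite directions. Atp2b1 encodes PMCA1, the pump found in nearly all cells, and spans bases 98914406 to 99026143 of chromosome 10 (plus strand, GRCm38). Atp2b4 encodes PMCA4, which like PMCA1 is switched on by calmodulin, and spans bases 133699457 to 133801041 of chromosome 1 (minus strand). Their promoter windows from RefSeq (GRCm38.p6, 250 bases before to 50 after a transcript start) are shown because these genes were called in all 3 comparisons, in opposite directions, with CG dinucleotides in capitals.
Atp2b1, chr10:98914392-98914691, plus strand: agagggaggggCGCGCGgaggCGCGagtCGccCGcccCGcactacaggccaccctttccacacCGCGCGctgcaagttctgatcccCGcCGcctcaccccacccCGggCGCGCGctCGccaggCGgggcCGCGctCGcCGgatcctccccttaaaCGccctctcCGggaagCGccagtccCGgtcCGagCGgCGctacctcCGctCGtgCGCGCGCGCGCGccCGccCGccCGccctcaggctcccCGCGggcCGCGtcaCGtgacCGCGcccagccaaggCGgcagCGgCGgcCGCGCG
Atp2b4, chr1:133753698-133753997, minus strand: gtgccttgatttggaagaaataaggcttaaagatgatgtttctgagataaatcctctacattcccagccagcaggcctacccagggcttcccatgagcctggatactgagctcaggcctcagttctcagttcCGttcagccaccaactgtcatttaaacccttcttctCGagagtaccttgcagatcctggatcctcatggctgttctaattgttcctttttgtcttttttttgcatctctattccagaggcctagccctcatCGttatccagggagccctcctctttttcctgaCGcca
The Atp2b1 window held 54 CG dinucleotides and was 79.3% G and C, and the window at its other listed start (chr10:98914902-98915201) held 45 and was also 79.3% G and C. The Atp2b4 window, whose start lies inside the annotated gene, held 4 and was 47.7% G and C. Over 32851 promoter windows of this length the median was 7 CG dinucleotides, and 0.347% held at least as many as the Atp2b1 window shown. Which start each gene used in these cells was not measured.

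The normalized count of Atp2b1 was 17648 and 17834 under DMSO, 6496 and 9992 under TGF-β, and 4660 and 4856 under TGF-β+2APB. No group overlapped another, and the TGF-β replicates were far apart. With TGF-β the gene fell by 1.11 on the log2 scale (SE 0.20, edgeR FDR 0.00725), a 2.15-fold drop. With TGF-β+2APB against DMSO it fell by 1.90 (SE 0.20, edgeR FDR 0.00075), a 3.73-fold drop. On addition of 2APB to TGF-β it fell by a further 0.79 (SE 0.20, edgeR FDR 0.0458). This last call was lost in 8 of 17 alternatives, among them each fit without a DMSO or a TGF-β+2APB library, and over all 17 the FDR ran from 0.00264 to 0.148.

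Atp2b4 stood at 16099 and 16400 normalized counts under DMSO, 22685 and 21986 under TGF-β, and 42465 and 34135 under TGF-β+2APB. The libraries of each group lay wholly above those of the group before. TGF-β raised it by 0.46 on the log2 scale (SE 0.11, edgeR FDR 0.0221). TGF-β+2APB raised it by 1.24 (SE 0.11, edgeR FDR 0.000443), or 2.36-fold. Adding 2APB to TGF-β raised it by 0.78 (SE 0.11, edgeR FDR 0.0112), which passed 0.05 in every alternative at that threshold. The rise with TGF-β alone lost its call when either DMSO library was left out, with an FDR of 0.136 and 0.116.

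A ratio of the counts of 2 genes within a library does not depend on how libraries are scaled. The ratio of Atp2b4 to Atp2b1 counts was 0.912 and 0.92 under DMSO, 3.49 and 2.2 under TGF-β, and 9.11 and 7.03 under TGF-β+2APB. Relative to the DMSO mean it stood 3.81 and 2.4 times as high with TGF-β and 9.95 and 7.68 times as high with TGF-β+2APB. Per kilobase of merged exon in GENCODE M21 (12.2 kb for Atp2b4 and 15.2 kb for Atp2b1), Atp2b4 supplied 53.1% and 53.3% of the RNA of both pumps under DMSO, 81.3% and 73.2% under TGF-β, and 91.9% and 89.7% under TGF-β+2APB. The summed level of both, on the same per-kilobase scale, was 2470 and 2510 under DMSO, 2280 and 2450 under TGF-β, and 3770 and 3110 under TGF-β+2APB. So the summed level with TGF-β overlapped no DMSO library but lay close below, and that with TGF-β+2APB lay above all others. The shares and sums rest on exon lengths merged over all annotated transcripts, and the transcripts in use were not measured. These ratios and sums were chosen after the values were seen and were not tested.

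**Figure D2:**
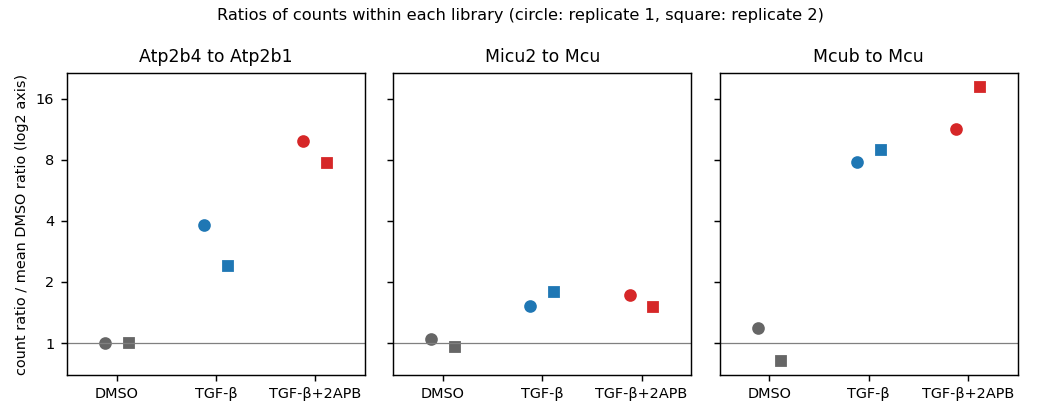
Ratios of counts within each library, divided by the mean ratio of the DMSO replicates (y axis, log2 axis), by group (x axis). Circles are replicate 1 and squares replicate 2. The ratios of Atp2b4 to Atp2b1 and of Mcub to Mcu are higher with TGF-β than in DMSO and higher again with TGF-β+2APB, where the first reached 9.95 and 7.68, while that of Micu2 to Mcu is higher in all treated libraries and overlaps between the treatments.

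Among the SERCA pumps, Atp2a2 carried nearly all RNA. It encodes SERCA2, the main calcium pump of the endoplasmic reticulum outside muscle, on chromosome 5 from 122453513 to 122502225 (minus strand). Its normalized count was 37164 and 37302 under DMSO, 37990 and 33744 under TGF-β, and 30453 and 32337 under TGF-β+2APB. The TGF-β replicates lay on either side of the DMSO replicates, and both TGF-β+2APB libraries lay below all others. With TGF-β the log2 fold change was -0.05 (SE 0.08, edgeR FDR 0.632). With TGF-β+2APB against DMSO, Atp2a2 fell by 0.25 (SE 0.08, edgeR FDR 0.0484), a call just inside the threshold that 8 of 17 alternatives lost, with an FDR of up to 0.285. Against TGF-β the value was -0.19 (SE 0.08, edgeR FDR 0.166).

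Atp2a3 encodes SERCA3, which is best known from blood cells and endothelium, and lies on chromosome 11 from 72961169 to 72993044 (plus strand). Its deposited counts were 16 and 8 under DMSO, 0 and 6 under TGF-β, and 14 and 160 under TGF-β+2APB. Only replicate 2 of TGF-β+2APB was high, and replicate 1 of that group lay within the DMSO values. The blood and immune markers moved with it: in the same library Ptprc was at 752 counts against 36 in replicate 1, Itgam at 1018 against 12 and Lyz2 at 29060 against 158. The endothelial marker Vwf was at 384 and 248 counts in these libraries. Their part in the Atp2a3 value was not tested. Against TGF-β the fitted log2 fold change was 4.76 (SE 1.56, edgeR FDR 0.094) and against DMSO 2.82 (SE 1.33, edgeR FDR 0.127), neither called, while DESeq2 called the first with an FDR of 0.0146. Without replicate 1 of TGF-β+2APB edgeR called both, with an FDR of 0.0253 and 0.0135. Without replicate 2 of TGF-β+2APB the mean fell below 20 normalized counts and the gene was not tested.

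**Figure D3:**
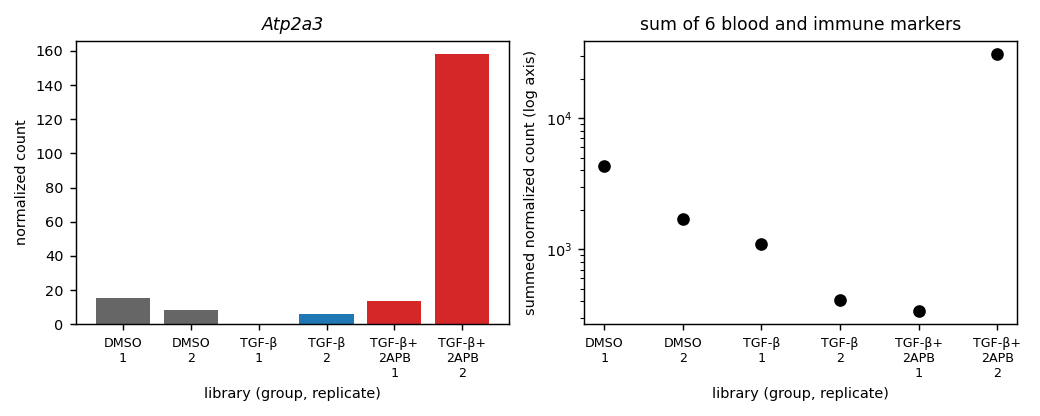
Left, normalized count of Atp2a3 (y axis) in each library (x axis). Right, summed normalized count of 6 blood and immune markers (y axis, log scale) in the same libraries. Replicate 2 of TGF-β+2APB is high in both, at 158 and 31067.

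The Golgi pump Atp2c1 rose while its paralog Atp2c2 was barely present. Atp2c1 encodes SPCA1, the widely expressed pump that supplies the Golgi with calcium and manganese, on chromosome 9 from 105403539 to 105527319 (minus strand). It stood at 9509 and 9894 normalized counts under DMSO, 13018 and 14288 under TGF-β, and 15518 and 14590 under TGF-β+2APB. Both treated groups lay above DMSO, and every TGF-β+2APB library lay above those with TGF-β. The log2 fold change was 0.49 with TGF-β (SE 0.08, edgeR FDR 0.00539). For TGF-β+2APB against DMSO it was 0.63 (SE 0.08, edgeR FDR 0.00148). The difference between the treatments, 0.14 (SE 0.08, edgeR FDR 0.28), was not called. The rise with TGF-β was not called without replicate 1 of DMSO (FDR 0.0671). The protein-coding gene Aste1 overlaps Atp2c1 on the opposite strand, and since the strand setting of the counting is not given in the sources used here, reads in the overlap cannot be assigned.

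Atp2c2 encodes SPCA2, a pump of secretory epithelia that is known from the lactating mammary gland, on chromosome 8 from 119700009 to 119757717 (plus strand). Its deposited counts were 18 and 14 under DMSO, 2 and 2 under TGF-β, and 4 and 8 under TGF-β+2APB. All 3 groups were apart, at levels close to the limit of detection. The pooled level in DMSO was 8.02 times that with TGF-β (95% exact interval 1.89 to 71.9) and 2.72 times that with TGF-β+2APB (1.01 to 8.48). These intervals were computed on halved counts, because every deposited value was even, and cover counting error only. Without the filter on low counts edgeR gave a log2 fold change of -2.92 with TGF-β (SE 0.71, FDR 0.0287), -1.42 with TGF-β+2APB (SE 0.63, FDR 0.136) and an FDR of 0.276 between the treatments.

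Per kilobase of merged exon, Atp2a2 was the highest of the 6 pumps in each group, with a mean of 6120 normalized counts per kb in DMSO (SD 16, n = 2), 5900 with TGF-β (SD 494, n = 2) and 5160 with TGF-β+2APB (SD 219, n = 2). In DMSO Atp2b4 (1330, SD 17.4), Atp2b1 (1170, SD 8.64) and Atp2c1 (1000, SD 28.1) followed. Neighbours were further apart than their replicates, but that spread does not cover the exon length used as divisor. By normalized counts the DMSO mean of Atp2b1 (17740) lay above that of Atp2b4 (16250). With TGF-β+2APB the order was Atp2b4 (3130, SD 481), Atp2c1 (1550, SD 67.7) and Atp2b1 (313, SD 9.11). Atp2a2 made up 63.8% and 63.4% of the summed per-kilobase level of the 6 pumps under DMSO, 63.3% and 58.6% under TGF-β, and 48.2% and 53.4% under TGF-β+2APB. Atp2b4 made up 13.7% and 13.8%, 18.8% and 18.9%, and 33.4% and 28% in the same order. The share of the endoplasmic reticulum pump was thus lowest, and that of PMCA4 highest, in the TGF-β+2APB libraries. The summed level itself ran from 9480 to 10400 per kb over the 6 libraries.

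**Figure D4:**
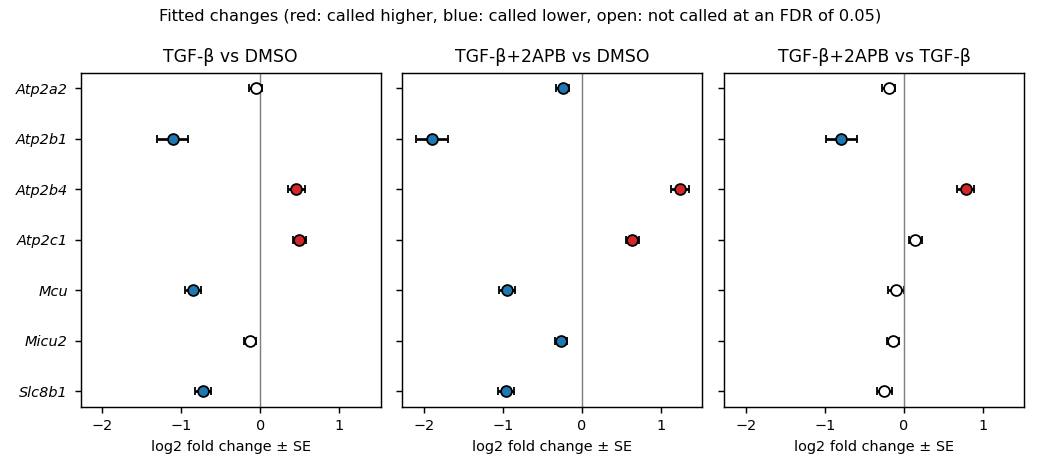
Log2 fold change with SE (x axis) of 7 of the 8 tested genes, without Atp2a3 (y axis), in each comparison. Filled points were called at an edgeR FDR of 0.05 or less (red higher, blue lower) and open points were not. Atp2b1 and Atp2b4 are called in all 3 panels, at -1.11 and 0.46, -1.90 and 1.24, and -0.79 and 0.78.

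The mitochondrial genes for uptake and for release both fell. Mcu, the pore of the uniporter, lies on chromosome 10 from 59446984 to 59616692 (minus strand). Its normalized count was 6594 and 6874 under DMSO, 4040 and 3420 under TGF-β, and 3385 and 3577 under TGF-β+2APB. All treated libraries lay below DMSO, and the treated groups overlapped each other. It fell by 0.85 on the log2 scale with TGF-β (SE 0.10, edgeR FDR 0.00168) and by 0.95 under TGF-β+2APB (SE 0.10, edgeR FDR 0.000729), and the value between the treatments was -0.10 (SE 0.10, edgeR FDR 0.53). The falls against DMSO were called in all 17 alternatives. Without replicate 2 of TGF-β the fall between the treatments was called as well. The protein-coding gene Gm10322 overlaps Mcu on the opposite strand.

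Slc8b1, the exchanger that carries calcium out of mitochondria, lies on chromosome 5 from 120511168 to 120534024 (plus strand). It stood at 1944 and 1859 normalized counts under DMSO, 1196 and 1112 under TGF-β, and 909 and 1036 under TGF-β+2APB. The groups did not overlap. It fell by 0.72 with TGF-β (SE 0.10, edgeR FDR 0.00305) and by 0.97 under TGF-β+2APB (SE 0.10, edgeR FDR 0.000695). The value on addition of 2APB was -0.25 (SE 0.10, edgeR FDR 0.151).

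Micu2, a gatekeeper that helps to hold the uniporter closed at low calcium, lies on chromosome 14 from 57916261 to 57999262 (minus strand). Its normalized count was 4283 and 4056 under DMSO, 3837 and 3795 under TGF-β, and 3603 and 3330 under TGF-β+2APB. The groups did not overlap, but the steps were small. The log2 fold change was -0.13 with TGF-β (SE 0.07, edgeR FDR 0.219) and -0.14 from TGF-β to TGF-β+2APB (SE 0.07, edgeR FDR 0.249). Only the fall with TGF-β+2APB against DMSO was called, by 0.27 (SE 0.07, edgeR FDR 0.0264), and it lost its call when any DMSO or TGF-β+2APB library was left out (FDR of up to 0.258). The ratio of Micu2 to Mcu counts was 0.649 and 0.59 under DMSO, 0.95 and 1.11 under TGF-β, and 1.06 and 0.931 under TGF-β+2APB, so it was higher in all treated libraries and overlapped between the treatments.

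For Mcu and Atp2c1, which moved in opposite directions with TGF-β, the promoter windows were searched on both strands for CAGAC, a Smad-type element, and for CACCTG, the E-box bound by Snail and Zeb factors. Matches are in capitals.
Mcu, chr10:59616643-59616942, minus strand: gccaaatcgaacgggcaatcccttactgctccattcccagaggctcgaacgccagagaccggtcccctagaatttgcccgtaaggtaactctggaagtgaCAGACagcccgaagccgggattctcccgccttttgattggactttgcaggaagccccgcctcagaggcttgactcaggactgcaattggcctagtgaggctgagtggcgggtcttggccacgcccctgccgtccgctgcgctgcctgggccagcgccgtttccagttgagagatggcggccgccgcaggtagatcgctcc
Atp2c1, chr9:105521208-105521507, minus strand: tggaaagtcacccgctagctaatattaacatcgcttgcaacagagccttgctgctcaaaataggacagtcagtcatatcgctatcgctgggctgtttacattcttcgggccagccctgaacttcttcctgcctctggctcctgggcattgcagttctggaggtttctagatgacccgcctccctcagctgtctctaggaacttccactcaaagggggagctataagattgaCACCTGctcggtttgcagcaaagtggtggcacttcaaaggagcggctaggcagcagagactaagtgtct
The Mcu window held 1 CAGAC and that of Atp2c1 held 1 CACCTG at the start shown and none at its other listed start. The Atp2c1 window shown was thus the one with the match, with 8 CG dinucleotides and 51.7% G and C. Its other window (chr9:105495084-105495383) held 36 and was 73.3% G and C. Both starts of Atp2c1 lie inside the annotated gene, and which was used was not measured. Of 8 windows listed for 6 of the 9 genes, 3 held CAGAC and 1 held CACCTG, where 49.6% and 20.2% of all windows did. Neither motif occurred in the windows of Atp2b1 or Atp2b4. A match of these letters is a description of the sequence and not evidence of binding.

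Other genes of calcium handling were taken from lists of 33 symbols, of which 30 were in the table and 22 were tested. Of the 22, TGF-β changed 9 (4 higher, 5 lower). Against DMSO, TGF-β+2APB changed 13 (5 higher, 8 lower), and 2APB added to TGF-β changed 2 (1 higher, 1 lower), beside the 41.5%, 52.8% and 17.5% of all tested genes. Their median size of change was 0.26, 0.43 and 0.19 on the log2 scale, beside 0.35, 0.44 and 0.23 over all tested genes. In every fit that left out 1 library, Calm3 and Mcub kept their calls with TGF-β, and Calm3, Slc24a3, Mcub and Slc25a23 kept theirs with TGF-β+2APB against DMSO. The calls against DMSO of Bsg, Nptn, Smdt1, Mcur1, Letm1, Vdac1, Vdac2 and Slc11a2 were each lost without 1 or more of the libraries. So were those of Slc24a3 and Slc25a23 with TGF-β alone.

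The list of 10 genes of the uniporter complex and mitochondrial calcium followed Mcu in part. With TGF-β 4 were called lower and 1 higher, and against DMSO TGF-β+2APB left 6 lower and 2 higher. Those lower in both were Smdt1, the small subunit that couples pore and gatekeepers (-0.57 and -0.60), Mcur1, a regulator of the uniporter (-0.49 and -0.43), Letm1, a cation exchanger of the inner membrane (-0.36 and -0.29), and Slc25a23, a calcium-binding carrier (-0.73 and -1.24, all log2 fold changes with an edgeR FDR of 0.0289 or less). The porins Vdac1 and Vdac2 were lower only by the calls against DMSO with TGF-β+2APB (-0.35 and -0.30, edgeR FDR 0.0242 and 0.0319).

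Mcub, listed in the table under the older symbol Ccdc109b, encodes a paralog of Mcu that dampens the pore. It was at 43.2 and 31 normalized counts under DMSO, 175 and 170 under TGF-β, and 214 and 363 under TGF-β+2APB. All treated libraries lay above DMSO. It rose by 2.21 on the log2 scale with TGF-β (SE 0.34, edgeR FDR 0.0045) and by 2.95 under TGF-β+2APB (SE 0.35, edgeR FDR 0.00112), the latter also called without the library with high blood markers. The ratio of Mcub to Mcu counts stayed low, at 0.00656 and 0.00451 under DMSO, 0.0434 and 0.0498 under TGF-β, and 0.0632 and 0.101 under TGF-β+2APB.

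Of 8 pump partners and regulators, 5 were tested. Calm3 encodes calmodulin, which activates the PMCA pumps. It was at 31489 and 30280 normalized counts under DMSO, 20327 and 16485 under TGF-β, and 15520 and 15991 under TGF-β+2APB, and fell by 0.75 and 0.97 on the log2 scale against DMSO (SE 0.11 and 0.11, edgeR FDR 0.0038 and 0.000974). Calm2, which encodes the same protein, had log2 fold changes of -0.08 and 0.08 (edgeR FDR 0.384 and 0.325). Of the PMCA subunits, Bsg fell by 0.47 with TGF-β+2APB against DMSO (SE 0.12, edgeR FDR 0.0193). Nptn rose by 0.23 with TGF-β (SE 0.07, edgeR FDR 0.042) and fell by 0.30 from there on addition of 2APB (SE 0.07, edgeR FDR 0.0366).

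Of 8 sodium-calcium exchanger genes 3 were tested. Slc24a3, a potassium-dependent exchanger of the plasma membrane, was at 104 and 84.7 normalized counts under DMSO, 199 and 147 under TGF-β, and 301 and 306 under TGF-β+2APB. It rose by 0.87 with TGF-β (SE 0.24, edgeR FDR 0.0303) and by 1.68 under TGF-β+2APB (SE 0.24, edgeR FDR 0.00218). The cardiac-type exchanger Slc8a1 stayed at 14 to 46 counts per library and was not called, except lower against DMSO without replicate 2 of TGF-β+2APB. Of 4 genes of Golgi ion and manganese transport 3 were tested, and Slc11a2, a carrier of iron and manganese, was called higher with TGF-β+2APB against DMSO (log2 fold change 0.30, SE 0.10, edgeR FDR 0.0492). Of the 3 remaining pump genes, only Atp2a1 was tested, and it was not called in any comparison (edgeR FDR 0.637 to 0.803).

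**Figure D5:**
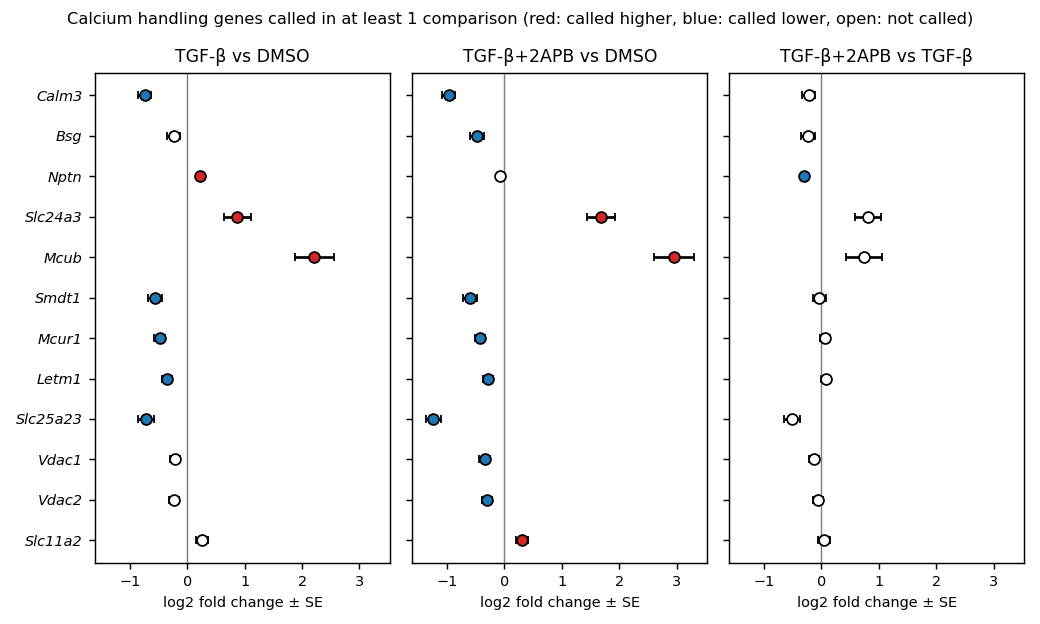
Log2 fold change with SE (x axis) of 12 other calcium handling genes called in at least 1 comparison (y axis), by comparison. Filled points were called (red higher, blue lower) at an edgeR FDR of 0.05 or less. Mcub has the highest value in the first panel, 2.21, and Slc25a23 the lowest in the second, -1.24.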

How the data were processed

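RNA of NMuMG cells under DMSO, TGF-β or TGF-β+2APB (2 replicates each) was sequenced as single-end reads after oligo-dT selection. Per the submitters' processing notes and the paper's methods, the authors used FastQC 0.11.2, TopHat2 2.0.13 and featureCounts, and deposited raw read counts per gene, unscaled. The notes name mm10, whereas the methods name a human genome, and the symbols are mouse symbols. All 18512 entries held even values, so the counts are not simply numbers of reads, and the reason is not known. The main fits used the values as deposited. In them 25 names changed to dates by a spreadsheet stayed unnamed. Annotation, strand and multi-mapping settings are not given in the sources used here.

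The analysis used edgeR 4.0.16 in R 4.3.3 (TMM, quasi-likelihood F-test, all 6 libraries in 1 model, no covariate). Genes whose mean reached 20 normalized counts were kept (13353) and called at a Benjamini-Hochberg FDR of 0.05 or less. SE was taken from the fold change and its F statistic (absolute log2 value over root F). Depth was 71840570 to 79473182 counts per library, and the biological coefficient of variation was 17.4%. Alternatives were DESeq2 1.42.0 with and without its prior, other scalings, filters, sample sets and thresholds, halved counts, a replicate block and each library left out. Positions and merged exon lengths came from GENCODE M21 (GRCm38), promoter windows from RefSeq (GRCm38.p6). The procedure was also run on simulated counts. The changes set there were larger than those of Micu2 and Atp2a2 and lay in genes with more counts than Atp2c2. That run therefore does not cover changes so small or counts so low.

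The 9 genes, the lists and the alternatives were chosen with earlier results of these data known. All 9 genes are named. Of the other lists, genes called in at least 1 comparison are named, except some that are counted in their lists but not reported here, and any further gene given with values was chosen after its values were seen. Figures were drawn with matplotlib 3.10.9.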

Additional observations from a re-analysis of the deposited data

How the results depend on the processing

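Of 401 values of single genes under an alternative, 367 kept direction and side of the threshold, 26 lost a call, 6 gained one and 2 reversed, neither of which was called as first fitted. The log2 fold change of Atp2a2 with TGF-β ran from -0.14 without replicate 1 of TGF-β to 0.029 without replicate 2. That of Mcu between the treatments ran from -0.21 without replicate 2 of TGF-β, where it was called, to 0.027 without replicate 1. Under library size scaling the median log2 fold change of all genes was -0.0393, -0.0677 and -0.039, in the order of comparisons used above. In the main fit it was -0.0102, -0.00326 and -0.00367. When single libraries were left out, the numbers of the 9 genes called were 3 to 5 with TGF-β, 5 to 7 with TGF-β+2APB against DMSO and 1 to 4 in the direct comparison, and those of the other calcium handling genes were 2 to 13, 5 to 14 and 0 to 8. With the lone sample left in a group assumed to vary like the others, fits without DMSO replicate 1 gave 2, 5 and 0 of the latter, and without TGF-β+2APB replicate 2 they gave 6, 7 and 0. In the direct comparison 1 of the 9 genes, Atp2b4, was called without the count filter, in the fit of only the 4 libraries compared and with the replicate block. At an FDR of 0.01 it was 0 by edgeR, with 3 at an unadjusted p under 0.05, against 3 called by DESeq2 at 0.05. Of the other calcium handling genes in the direct comparison, both DESeq2 settings called 6, a minimum of 10 counts per library 4, the replicate block 1, only the 4 libraries compared 0 (4 at an unadjusted p under 0.05) and an FDR of 0.01 by edgeR 0 (7 at an unadjusted p under 0.05). The FDR of 0.01 left 4 of these with TGF-β and 7 with TGF-β+2APB against DMSO.

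The replicate numbers are not stated to pair the libraries. Across 13353 genes (genes being no replicates), replicate differences had a Pearson r of 0.148 for DMSO and TGF-β, -0.458 for DMSO and TGF-β+2APB and -0.255 for TGF-β and TGF-β+2APB. With the replicate block the calls among the 9 genes were 5, 6 and 1 in the order used above, and Atp2a2 against DMSO (FDR 0.0828) and Atp2b1 between the treatments (FDR 0.0664) were not called. With the TGF-β+2APB replicates exchanged in the block, an alternative added after the data were seen, they were 5, 7 and 2. With 2 libraries per group, differences of the size seen for Micu2 and Atp2a2 lie at the limit of what the test could call. The cause of these shifts was not tested.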

Other observations

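Some low-count genes of calcium handling had too few counts for the main test and were picked after their values were seen. Sln encodes sarcolipin, a small membrane protein that inhibits SERCA. It had 0 counts in both DMSO libraries, 2 and 8 under TGF-β and 32 and 18 under TGF-β+2APB. The mean with TGF-β+2APB was 8.17 times a floor of 3 deposited counts per library, which stood in for DMSO. That floor was set on counts that were not halved. The counting error of the TGF-β+2APB values is not included, so 8.17 is not a lower bound. Atp2b3, a PMCA gene best known from nerve and muscle, had 10 counts in each DMSO library, 16 and 12 under TGF-β and 38 and 22 under TGF-β+2APB. The exchanger gene Slc8a3 had 4 and 10, then 8 and 10, then 18 and 30 counts. In each of these genes both TGF-β+2APB libraries lay above the other 4. Without the filter on low counts, TGF-β+2APB against DMSO had an edgeR FDR of 0.0146 (Sln), 0.0493 (Atp2b3) and 0.0884 (Slc8a3). Against TGF-β alone the edgeR FDR was 0.1965, 0.2207 and 0.2463 in the same order.

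Other low-count genes did not rise. Pln, which encodes phospholamban, another inhibitor of SERCA, had 2 and 0 counts under DMSO, 2 and 4 under TGF-β and 0 and 0 under TGF-β+2APB. The exchanger gene Slc8a2 had 6 and 2, then 4 and 0, then 0 and 0 counts.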
